A study of Mus musculus with 15 samples.

Results

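The windows described here are 1 kb stretches of the mouse genome whose sperm methylation differed between libraries of the same diet. The spread exceeded counting error when the counts of all CpGs were taken as independent, which CpGs on the same reads are not. Of 28743 windows holding at least 3 listed CpGs, 587 (2.04%) were selected on that spread. The variance of a window's percentage within the diets, less the variance expected from counting, had to exceed 25 squared points, an excess standard deviation (SD) over 5 percentage points. Because the members were chosen by this spread, it is given below as a description and carries no test. The difference between the diets was not used to choose them. By a stricter count described below, 327 of the 587 kept an excess above 0 and 70 stayed over 5 points. The ribosomal DNA on chromosome 17 and the deep repeats on chromosomes 6 and 16, 8 windows in all, were left out by the same rule.

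Sperm DNA came from male C57BL/6 mice of generation G1, with 7 libraries from a control diet and 8 from a protein restricted diet. The labels give no genetic alteration and no age, and do not say who ate the diet, the mouse or a parent. In reduced representation bisulfite sequencing, MspI cuts the DNA at CCGG, short CpG-rich fragments are kept, and bisulfite turns unmethylated cytosines into bases read as thymine. Each deposited file gives methylated and total read counts at the same 204492 CpGs, each of which had at least 11 methylated reads in every library. Total counts ran from 7846118 to 11841657 with the control diet and from 6650912 to 10712016 with protein restriction. The median coverage of a CpG was 29 to 42 and 26 to 39 reads. Nothing says that the libraries came from separate mice, so p-values measure only the spread between these libraries. Of the loci that mark sperm, the paternally methylated regions upstream of Meg3 (3 CpGs, 98.0%) and Rasgrf1 (4 CpGs, 92.5%) were highly methylated. A high value is common in this list: the median of all windows was 98.1%, and the filter on methylated reads removes unmethylated CpGs. These 7 CpGs alone therefore do not identify the cells. No listed CpG lay upstream of H19 or Zdbf2, at 10 promoters of germline and sperm genes or at 7 promoters methylated on the maternal copy, so those markers could not be read.

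Mature sperm DNA is methylated at most CpGs outside promoters, and this pattern is laid down in male germ cells before birth. Mice of an inbred strain share their DNA sequence, yet at some loci methylation is set differently from one mouse to the next. The best known are copies of the retrovirus-like IAP element near the agouti and axin genes. A percentage at a locus in sperm is an average over many cells, so an intermediate value can mean a mixture of methylated and unmethylated molecules.

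Promoter sequence was at hand for 6 of the 587 windows with a listed CpG within 250 bases before to 50 after a gene start (1.02%; 153 of all windows, or 0.532%). RefSeq promoters of build GRCm38.p6 matched 212 of the 322 genes named for the members. The sequences below are the 250 bases before the start, on the strand of the gene, shown for 4 of the 6 as members with listed CpGs upstream of a start. Of the other two, 1 has no listed CpG in these bases, and the sequence of G530011O06Rik, with 1 such CpG, is not shown. Capitals mark the listed CpGs. Kcnmb2 encodes an accessory subunit of calcium-activated potassium channels, and the other transcripts are predicted or non-coding RNAs.
4930478L05Rik (chr16:78560066-78560315, plus strand): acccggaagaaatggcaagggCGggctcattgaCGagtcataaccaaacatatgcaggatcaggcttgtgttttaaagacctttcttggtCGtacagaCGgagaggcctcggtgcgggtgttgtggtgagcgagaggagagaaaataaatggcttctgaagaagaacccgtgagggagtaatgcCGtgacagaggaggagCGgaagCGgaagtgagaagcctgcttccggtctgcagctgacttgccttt
Gm10476 (chr12:22467256-22467505, minus strand): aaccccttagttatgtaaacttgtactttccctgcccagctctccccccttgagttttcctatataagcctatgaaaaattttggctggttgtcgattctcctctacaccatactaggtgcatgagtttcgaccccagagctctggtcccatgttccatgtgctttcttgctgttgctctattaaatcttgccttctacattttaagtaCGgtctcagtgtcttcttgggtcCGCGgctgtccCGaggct
Gm40847 (chr12:18853074-18853323, plus strand): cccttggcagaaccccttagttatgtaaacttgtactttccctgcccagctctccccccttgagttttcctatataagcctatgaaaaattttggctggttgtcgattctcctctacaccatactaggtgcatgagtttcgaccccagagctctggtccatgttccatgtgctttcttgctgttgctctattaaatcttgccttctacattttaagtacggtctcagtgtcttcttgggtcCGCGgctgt
Kcnmb2 (chr3:31902453-31902702, plus strand): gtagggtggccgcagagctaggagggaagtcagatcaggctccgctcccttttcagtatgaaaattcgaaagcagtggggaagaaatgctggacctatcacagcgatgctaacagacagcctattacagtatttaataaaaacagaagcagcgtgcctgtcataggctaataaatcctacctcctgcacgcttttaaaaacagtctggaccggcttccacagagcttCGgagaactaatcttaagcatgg

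Gm10476 and Gm40847 share an unbroken run of 149 bases, from base 1 and base 11 of the stretches shown. No other of the 32851 promoters in the table holds a run of 30 bases from it. All listed CpGs of both stretches lie after that run. There, past a gap, the sequences are the same again up to the end of the Gm40847 stretch. Both windows were members, with an excess SD of 7.18 points at Gm10476 (mean 66.0%) and 6.64 points at Gm40847 (mean 54.8%). With the counts divided by the number of CpGs, a stricter count described below, these were 2.48 and 2.36 points. Copies this alike can exchange reads, and how such reads were placed is not stated in the sources used here, so their values are uncertain. At Gm10476 the control libraries ran from 56.5% to 76.7% and the protein restricted ones from 53.8% to 73.0%. At Gm40847 they ran from 41.2% to 67.1% and from 44.7% to 59.8%. The diets overlapped at both loci.

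The 4930478L05Rik stretch carries 7 of the 8 listed CpGs of its window, which also lies in the span of D16Ertd472e. Its mean was 58.3%, and protein restricted libraries ran from 46.5% to 69.4% where control libraries ran from 53.8% to 63.0%. The Kcnmb2 window, at 67.3%, ran from 60.7% to 84.4% in control and from 52.1% to 70.7% in protein restricted sperm. The excess SD was 5.36 points at 4930478L05Rik and 6.23 points at Kcnmb2, and 0 at both by the stricter count. The diets overlapped in both promoters.

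The members were partly methylated windows. Their mean methylation ran from 31.3% to 95.9%, with a median of 72.7%, where the median of all windows was 98.1%. Part of this follows from the rule, because a percentage near 100 leaves little room for spread. The list also limits low levels, as each CpG had at least 11 methylated reads in every library. Among windows at 50 to 60% 51.4% were members, among those at 70 to 80% 25.2%, and among the 23666 windows at 95 to 100% there was 1 member. The level did not decide alone: of the 1795 windows at 30 to 85%, 490 (27.3%) were members. The other 1305 of these, partly methylated windows that did not pass, serve below as the comparison.

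**Figure D1:**
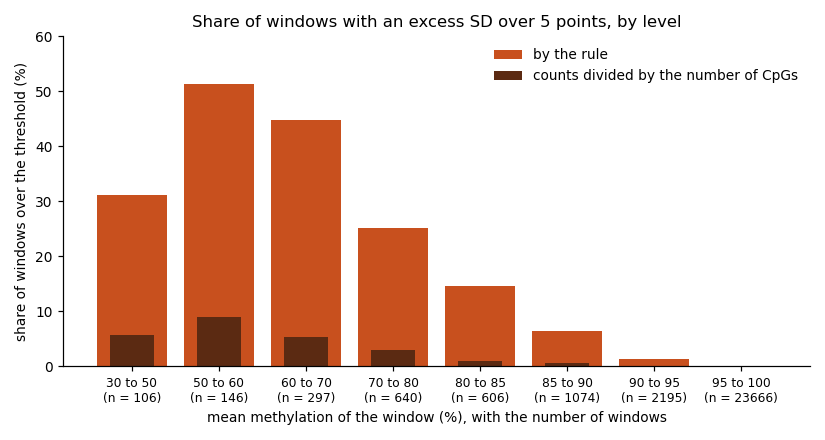
Share of 1 kb windows with an excess SD over 5 points (vertical axis, percent) by the mean methylation of the window (horizontal axis, percent, with the number of windows). Wide bars use the counting variance of the rule, with 51.4% of windows at 50 to 60%, and narrow bars divide the counts by the number of CpGs. The 5 windows under 30%, none of them a member, are not drawn.

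The size of the spread is the next point. Within a diet the SD between libraries had a median of 7.20 points over the members, of which counting gives 3.56 by the rule, and the median excess SD was 6.13 points. In partly methylated windows that did not pass, the within-diet SD had a median of 4.38 points and the excess SD 2.59. These windows were not matched to the members on level: their median methylation was 78.2%, against 72.7% in members. Coverage was somewhat lower in members, with medians of 36.8 reads per CpG against 42.3 in the comparison windows. Members held 4 CpGs at the median (3 to 13) within 108 bp. The 3 windows just inside the threshold, Gm5917, a window on chromosome 8 and Gm2848, had an excess SD of 5.001 to 5.01 points, and the 3 just outside, a window on chromosome 3, Eif3s6-ps4 and Gys2, 4.98 to 4.9996.

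The number of windows over 5 points depended on how reads were counted. The rule sums CpG counts as if each were an independent draw, but a read covers several CpGs of a short fragment. In 423 members (72.1%) all CpGs had nearly the same coverage, within a factor of 1.1, as CpGs on the same reads do. In such windows the SD between the CpGs of a library had a median of 5.38 points, where independent counts would give 7.22. The comparison windows of that kind had 9.97 points against 6.81, and all windows 2.60 against 2.53. Dividing the counts by the number of CpGs counts a read once where all CpGs share reads, and less than once elsewhere. It left 70 of 587 windows (11.9%) over 5 points, and 327 with an excess above 0. A milder version, chosen after the data were seen, counted reads once per group of CpGs of equal coverage. It left 158 over 5 points and 429 above 0. The other 517 windows were under 5 points by the stricter count. Of the 50 members with the largest excess SD, 44 were among the 70.

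**Figure D2:**
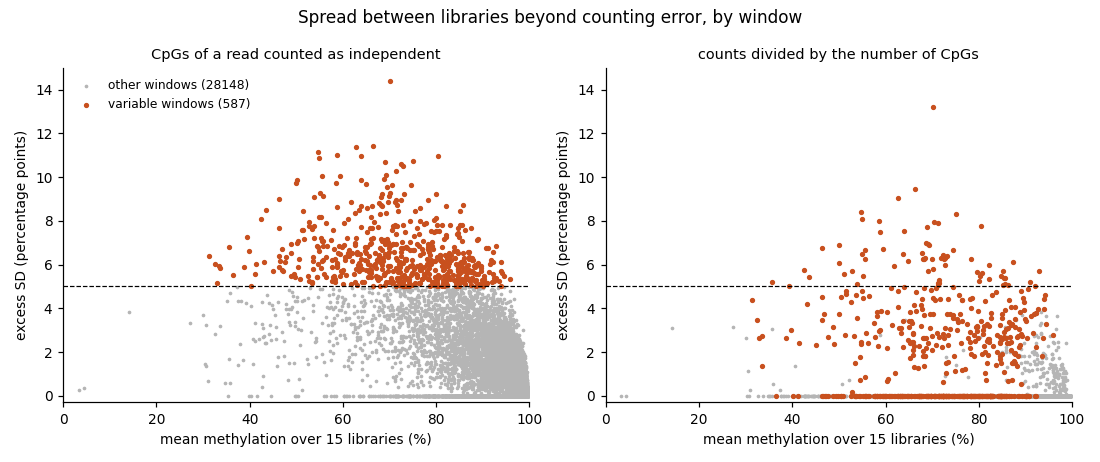
Excess SD between libraries of a diet (vertical axis, percentage points, negative values drawn at 0) against mean methylation (horizontal axis, percent) for 28735 windows. The dashed line is the threshold of 5 points: 587 windows lie above it by the rule (left) and 70 when the counts are divided by the number of CpGs (right).

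Kcnd2, the gene of the Kv4.2 potassium channel of neurons and heart, held the window with the largest excess SD, 14.4 points (chromosome 6, 21393001 to 21394000, 4 CpGs inside the gene). Control libraries ran from 59.2% over a median of 74.7% to 83.6%. Protein restricted libraries ran from 34.8% over 73.0% to 82.7%. Protein restricted replicates 3 and 2 were at 34.8% and 39.4%, control replicate 4 at 59.2%, and the next library, protein restricted replicate 1, at 66.3%. The first 3 of these are also the 3 libraries with the highest total counts. Most of the spread went with 1 CpG, which differed between libraries in its methylation and in its share of the window's reads. At 21393631 methylation ranged from 12.5% to 57.1% (mean 37.2%) with 83.8 reads, while the next 3 CpGs were at 97.5% to 98.6% with 37.4 reads. In protein restricted replicate 2 that CpG had 133 reads, of which 18 were methylated, and its neighbour 4 bases away had 20 reads. In protein restricted replicate 5 the same positions had 90 reads, 49 of them methylated, and 55 reads. Averaging the 4 CpGs with equal weight lowered the excess SD from 14.4 to 1.93 points, with the counting variance of the summed counts still subtracted.

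B230219D22Rik, a gene on chromosome 13 (55699001 to 55700000), showed the same arrangement. Its CpG at 55699331 was at 30.5% with 80.5 reads, between CpGs at 97.5% to 98.3% with about 24.1 reads. The window ran from 30.3% to 73.9% in control and from 47.2% to 75.5% in protein restricted sperm. Control replicate 4 was lowest. An unnamed window on chromosome 13 (94005001 to 94006000) had 1 CpG at 45.9% among CpGs at 97.5% to 99.2%. With equal weights the excess SD fell to 0 points at both, with the counting variance of the summed counts still subtracted. The deep low CpG weighs more in those counts, so a value of 0 does not show that no spread was left.

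In all, 34 members (5.79%) had 1 CpG at least 20 points below the others and covered at least 1.3 times as deeply. Such windows made up 15.9% of the partly methylated windows that did not pass and 1.68% of all windows. At the median the low CpG was at 46.0% and the others at 98.1%. The methylated reads at the low CpG numbered 0.976 times all the reads at the other CpGs, at the median. The lowest library was 1 of the 3 deepest in 14 of these 34 members (41.2%) and in 86 of the other 553 (15.6%). With equal weights, and the counting variance of the summed counts still subtracted, 32 of the 34 fell under the threshold, against 21 of the other 553. The part of read depth in these values was not tested beyond this.

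**Figure D3:**
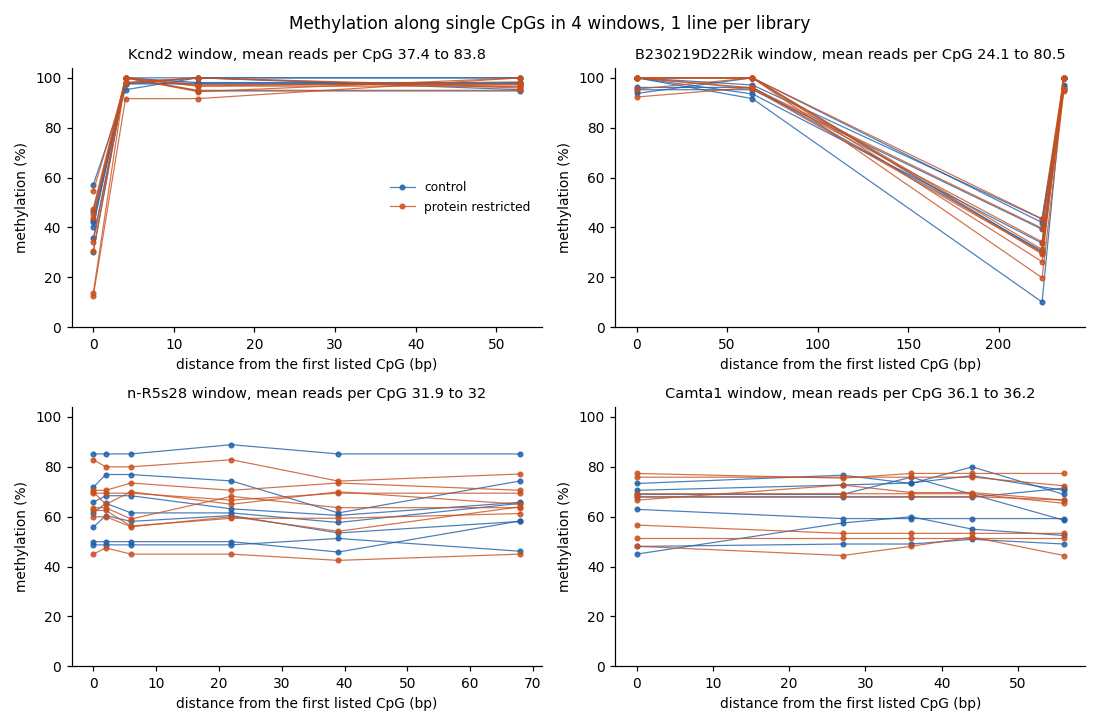
Methylation (vertical axis, percent) at each listed CpG of 4 windows by distance from the first listed CpG (horizontal axis, bp), with 1 line per library in blue for control and orange for protein restricted. At Kcnd2 and B230219D22Rik a single CpG is low and spread out, while at n-R5s28 and in the Camta1 window at 151485001 the CpGs of a library lie closer to each other.

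The other arrangement, in which a whole fragment moved, is shown by Camta1, the gene of a calmodulin-binding transcription activator. It held 2 consecutive members, at 151485001 and 151486001 on chromosome 4. Their 10 CpGs (151485928 to 151486050) lie across the window border and their coverage was alike (36.2 and 35.9 reads), so they share reads and count as 1 observation. In the first, protein restricted replicate 1 (47.4%) and control replicate 4 (49.2%) were lowest, and in the second control replicates 4 (49.1%) and 5 (51.3%). Protein restricted replicate 3 (77.0% and 77.4%) was highest in both. In control replicate 4 the 10 CpGs were between 47.2% and 52.8%, and in protein restricted replicate 3 between 73.6% and 79.2%. The excess SD was 9.87 and 9.68 points, and 6.49 and 6.18 points with the counts divided by the number of CpGs. Rims2, whose protein acts at the presynaptic active zone, also held 2 consecutive members on chromosome 15, whose spread came from different libraries. Protein restricted replicate 6 was at 73.9% in the window at 39675001, where every other library was at 92.1% or more, and at 95.1% in the window at 39674001. In that window control replicate 6 was lowest (78.2%).

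The 5S ribosomal RNA is a part of the large ribosomal subunit, and its genes occur in many near-identical copies. All 6 CpGs of the window at n-R5s28, a 5S gene on chromosome 17 (47848834 to 47848952), lie inside the gene. Control libraries ran from 48.7% over 62.2% to 85.8% and protein restricted libraries from 45.0% over 65.6% to 79.5%, with control replicate 2 highest and protein restricted replicate 1 lowest. The excess SD was 10.99 points, and 7.55 points with the counts divided by the number of CpGs. At 32.0 reads per CpG its coverage was near the median of all windows, 31.8. How reads from near-identical copies were placed is not stated in the sources used here, so its values are uncertain.

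Of the 12 windows with the largest excess SD, 5 lay outside genes. On chromosome 5 (86856001 to 86857000) control libraries ran from 30.3% to 78.5%, with an SD of 16.1 points, and protein restricted libraries from 44.2% to 60.3%, with an SD of 5.70 points. On chromosome 10 (92539001 to 92540000) the lowest libraries were at 45.3% and 52.5% in the 2 diets, and the highest of all, control replicate 3, at 85.4%. On chromosome 7 a pair of windows (116635001 and 130012001) ran from 39.7% and 38.0% to 77.5% and 73.3%. The predicted genes Gm4151 and Gm33630 had control replicate 5 lowest, at 41.3% and 53.1%. Slc16a6, a monocarboxylate transporter gene, had protein restricted replicate 1 at 98.9%, against at most 81.2% in the 7 others of its diet.

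**Figure D4:**
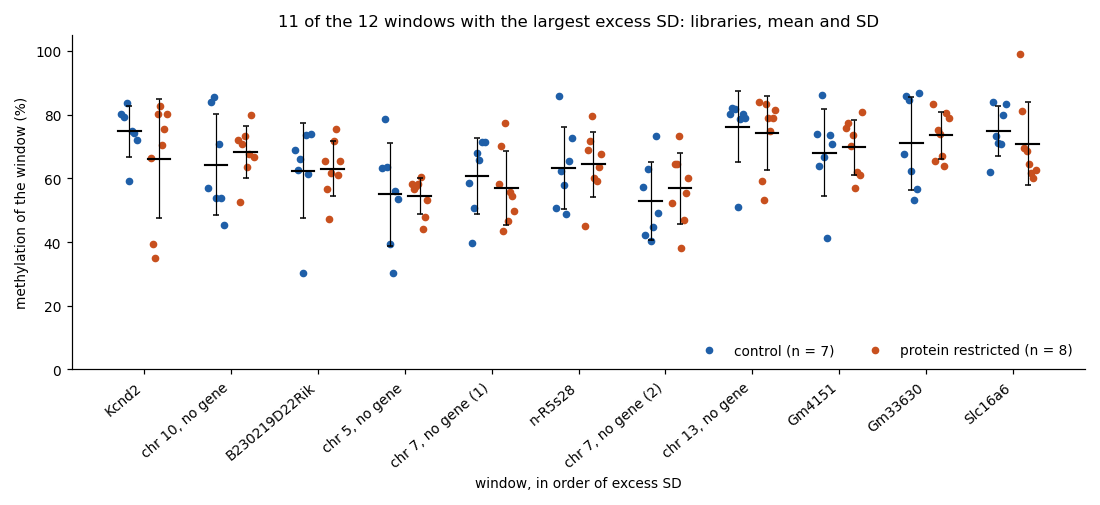
Methylation (vertical axis, percent) of 11 of the 12 windows with the largest excess SD (horizontal axis, in that order), with a point for each of 7 control and 8 protein restricted libraries and a bar with whiskers for mean and SD. The diets overlap in each window drawn, and single libraries such as control replicate 4 at B230219D22Rik (30.3%) stand far from the rest.

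The 70 windows that stayed over the threshold with the counts divided by the number of CpGs had a median excess SD by the rule of 8.98 points and a mean methylation of 35.7% to 92.8%. With equal weights for CpGs 65 of them were over 5 points. The 70 include 4 windows with 1 low CpG, among them Kcnd2, B230219D22Rik and the window on chromosome 13 described above. Of the 70, 26 lay in protein-coding genes, and the examples below were chosen after their values were seen. Fto, the gene of an RNA demethylase linked to body weight, ran from 46.0% to 81.0% in control and from 59.8% to 81.7% in protein restricted sperm. Its excess SD was 9.21 points by the rule and 6.39 points with the counts divided by the number of CpGs. Snrpn, an imprinted gene expressed from the paternal copy, had 1 such window inside its long gene span (chromosome 7, 60126001 to 60127000). No listed CpG lay at its promoter. There control replicate 1 was lowest (55.6%) and control replicate 5 highest (88.5%). Tph2, which encodes the enzyme of serotonin synthesis in neurons, had an SD of 3.25 points in control and 11.9 in protein restricted sperm. Rora, a nuclear receptor of the clock, and Cacnb4, a calcium channel subunit, had an excess SD of 7.76 and 8.95 points.

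In their position in the genome the members were close to the other partly methylated windows. A gene span held 293 members (49.9%), against 65.1% of all windows and 47.9% of the comparison windows. A protein-coding span held 35.3%, against 56.4% and 34.9%. Outside genes and their 2 kb flanks lay 257 members (43.8%). Every autosome had members, from 1.03% of windows on chromosome 11 to 2.81% on chromosome 16. There were 3 members among 143 windows on the X chromosome and 1 among 14 on the Y chromosome.

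All 3 X-linked members lay at the distal end of Mid1, the gene of a ubiquitin ligase that in the mouse spans the border of the pseudoautosomal region, the stretch shared by X and Y. Mid1 was the only gene with 3 members, and Atrnl1, Camta1, Rims2 and Snrpn had 2. The Mid1 window at 169979001 was the deepest member, with 208 reads per CpG, and those at 169983001 and 169985001 had 105.5 and 68.9. At 169979001 control replicate 3 was at 39.9%, where all other libraries ran from 54.7% to 66.5%. At 169983001 control replicate 1 was lowest (70.7%), and at 169985001 it was lowest too (73.3%), with control replicate 4 at 90.2% and 89.2%. The latter 2 windows, 1017 bp apart at their nearest CpGs, had a Pearson r of 0.795 over the 15 libraries. The first had an r of -0.0173 with its neighbour.

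Over the genome, 11 members had another window within 5 kb whose CpGs lay at least 500 bp away, and the median r with it was 0.161, with 6 above 0, the Mid1 pair being counted from both sides. In 57 such comparison windows the median was 0.139. Within windows, 8 members had groups of CpGs on different reads at least 300 bp apart, with a median r of 0.428 and all 8 above 0. In 33 comparison windows that median was 0.0637, with 22 above 0. The r values share libraries and depth, and a member was chosen on the sum of its groups, so they are descriptions.

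Gene groups listed for the tissue and question are set beside the share over all windows, 2.04%. IAP-associated genes with known variation between mice had 0 members among 20 windows. Germline and sperm genes had 0 of 18, genes of DNA methylation 0 of 19, and protocadherins and cadherins, adhesion proteins, 0 of 93. These groups are too small for a count of 0 to be told from that share. Imprinted genes had 2 of 43 (4.65%), both in Snrpn. Olfactory and vomeronasal receptors had 3 of 48 (6.25%), near Olfr205 and Olfr1473-ps1 and in Vmn2r-ps23. The 48 receptor windows had a median methylation of 94.5%, against 98.1% for all windows, and lower levels hold more members. By the stricter count 0 of the 3 stayed over 5 points. Zinc finger genes had 3 of 236 (1.27%: Zfp827, Zfp536, Zfp180), and metabolic and growth genes 1 of 68 (1.47%: Fto). Predicted genes with Gm symbols had 94 of 3364 (2.79%), against 2.04% of all windows. Potassium channel genes had 4 of 111 (3.60%), namely Kcnd2, Kcnh2, the cardiac repolarisation channel hERG, Kcnb2 and Kcnmb2.

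Among the potassium channel genes the spread took both forms. Kcnb2, a delayed rectifier, had 1 low CpG (44.8% against 97.4%). Its excess SD went from 6.57 to 0 points with equal weights, under the same subtraction as at Kcnd2. Kcnh2 had none: it ran from 38.0% to 65.8% in control and from 47.6% to 72.0% in protein restricted sperm, with an excess SD of 8.16 points under either weighting and 4.78 points with the counts divided by the number of CpGs. No group in these lists was tested as a whole.

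The diet comparison asks whether the windows that vary most also separate the diets. Protein restricted minus control, 292 members were higher and 295 lower, with a median difference of -0.03 points and a median size of 2.26 points. By a quasi-binomial F test over all windows with Benjamini-Hochberg adjustment, 0 of 587 passed an adjusted p of 0.05, as did 0% of all windows. At an unadjusted p under 0.05 there were 11 members (1.87%), against 3.33% of all windows. Of the 11, 7 were higher (1.64% of all windows were) and 4 lower (1.69%). A window's own spread enters this test, so windows chosen for a large spread have larger p-values by construction. Without control replicate 5 there were 17 such members (2.90%), against 3.26% of all windows. Without control replicate 4 or 6 there were 8 (1.36%), against 3.33% and 3.2%, and with at least 5 CpGs per window 5 (2.38%), against 3.23%. No member had diets whose libraries did not overlap, and 13 of all windows did (0.0452%). With limma 0 members passed, on percentages or on logit values, and 15 (2.56%) and 7 (1.19%) had an unadjusted p below 0.05, against 4.75% and 5.08% of all windows.

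Gm38424, a long non-coding RNA on chromosome 5, had the smallest p of the members that were higher. Its mean was 81.2% ± 9.79 (SD, n = 7) with the control diet and 93.4% ± 4.44 (SD, n = 8) with protein restriction, a difference of 12.19 points (SE 4.02). Control libraries ran from 63.2% to 90.8% and protein restricted ones from 85.5% to 100%, so they overlapped. The unadjusted p was 0.00423 and the adjusted p 0.999 by the quasi-binomial test across all windows. Windows outside genes on chromosomes 1, 14 and 18 and a window near Gm41447 also had higher values, by 7.45 to 10.85 points, at unadjusted p-values of 0.0136 to 0.0359 from that quasi-binomial model.

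Max, whose protein is the partner of MYC, had the most negative difference, in a window within 2 kb of the gene. Control libraries were at 78.5% ± 6.26 (SD, n = 7) and protein restricted ones at 65.4% ± 8.48 (SD, n = 8), a difference of -13.15 points (SE 3.82). The unadjusted p was 0.00431 and the adjusted p 0.999 by the quasi-binomial test across all windows. This window was among the 34 with 1 low CpG, and with equal weights its excess SD was 0, under the same subtraction as at Kcnd2. Sox6 and Zeb2, genes of developmental transcription factors, differed by -7.78 points (SE 3.06) and -8.00 points (SE 3.01). Windows outside genes on chromosomes 2 and 6 differed by -8.73 and -6.46 points. None of these passed the adjusted test.

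The rule favours differences within a diet, so the levels of single libraries are given as a description. Averaged over the 587 windows, control libraries had a mean of 72.0% ± 1.97 (SD, n = 7), from 69.0% to 74.7%, and protein restricted libraries of 71.9% ± 1.22 (SD, n = 8), from 69.997% to 73.2%. The comparison windows had SDs of 0.500 and 0.312 points. Control replicate 5 was the lowest of all libraries in 100 members (17.04%) and protein restricted replicate 6 in 79 (13.5%), while control replicate 3 was the highest in 87 (14.8%). Control replicate 4 was highest in 18. In the comparison windows control replicate 5 was lowest in 8.20% and protein restricted replicate 6 in 9.04%. There control replicate 3 was highest in 8.58% and control replicate 4 in 5.75%. Protein restricted replicate 6, with the fewest counts (6650912), was also the library most often highest in the comparison windows (9.35%). Among the 70 windows that stayed with the counts divided by the number of CpGs, control replicate 5 was lowest in 20.

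Ribosomal DNA on chromosome 17, which the rule leaves out, was lowest in control replicates 4 and 5 (21.4% and 22.6%) and protein restricted replicate 6 (24.8%), and highest in control replicate 3 (50.1%). Those 3 low libraries also had the 3 lowest means over the members (69.8%, 69.0% and 69.997%), and control replicate 3 had the highest. The order was not particular to the members. Over all windows the same 3 were lowest (95.6%, 95.5% and 95.5%) and control replicate 3 highest (95.9%). In the comparison windows control replicates 4 and 5 were lowest (73.7% and 73.8%) and control replicate 3 highest (75.1%). Protein restricted replicate 6 was at 74.0% there. Control replicate 1 was at 25.5% in ribosomal DNA and at 73.0% over the members. Which feature of the libraries these values share was not tested.

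**Figure D5:**
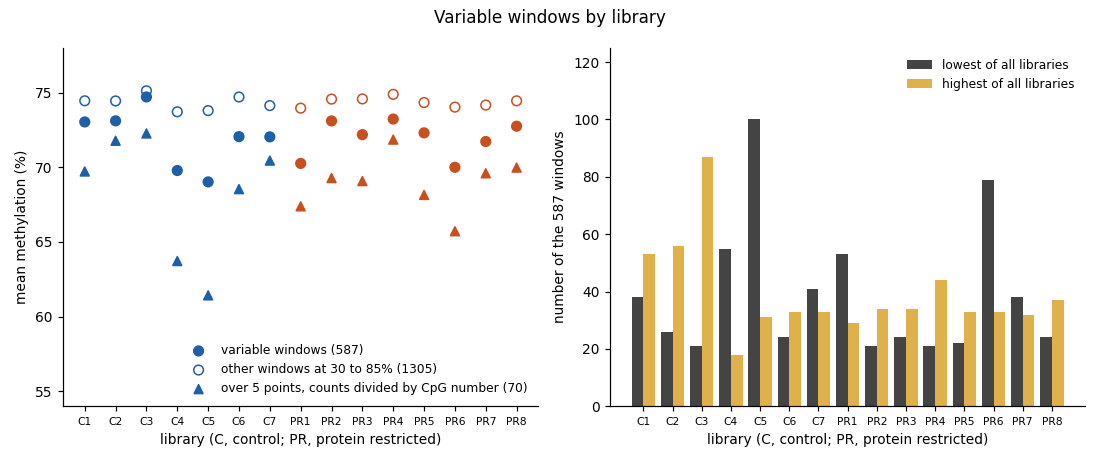
Left, mean methylation (vertical axis, percent) in each library (horizontal axis) over the 587 variable windows, the 70 that remain with the counts divided by the number of CpGs and 1305 other windows at 30 to 85%. Right, in how many of the 587 windows a library was the lowest or the highest of all 15, with control replicate 5 lowest in 100 and control replicate 3 highest in 87.

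Without its own most extreme library, 339 of the 587 windows were under the threshold and 248 over it. A lower spread is built into leaving out the most extreme library. Control SD exceeded protein restricted SD in 330 of the 587 members, in 658 of the 1305 comparison windows and in 14121 of the 28735 windows the rule covers. Libraries with consecutive numbers in their titles were compared with the rest, as such numbers may mark a litter or a batch, which the labels do not say. Over the members, 11 pairs of such libraries within a diet differed by 8.24 points on average and the other 38 pairs by 8.48.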

How the data were processed

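The authors deposited, for each of 15 libraries, methylated and total read counts per CpG, which were not normalized. The submitters' processing notes name Bismark 0.7.12, Bowtie2 2.1.0 and the build mm10, without their roles. No source used here describes trimming, filters or the handling of duplicates and strands, and counting variances cover counting error only. Counts were summed over windows of 1000 bp with at least 3 listed CpGs. The counting variance was f(1 - f)/n, put on the squared percent scale, with f the pooled fraction of the diet and n the library's total. Diets were compared with a quasi-binomial F test of the counts (dispersion at least 1, 13 residual degrees of freedom) over 28743 windows, adjusted by Benjamini-Hochberg. The calculations were tested on simulated data in which all counts of a window were independent draws. That test does not cover CpGs that share reads. limma was an alternative. Gene names come from RefSeq for GRCm38.p6, by gene span or 2 kb on either side. Exons and UTRs were not analysed. Named windows are the 12 with the largest excess SD, the 5 with the smallest diet p in each direction, up to 8 in runs inside genes, the 3 deepest, 3 on each side of the threshold and up to 3 per gene list. Of these, 1 window is not reported here, though the counts include it. The members and gene lists were chosen with earlier results of these data known. Replicates are numbered in accession order and pair nothing.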

Additional observations from a re-analysis of the deposited data

Results flagged for a closer look

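Over 96 groups of libraries examined (the named windows, the mean over the variable windows and the total counts, in each diet), 6 held a library separated from its nearest neighbour by most of the spread of that diet. About 1 in 20 would be so by chance, a rate that does not hold for windows chosen for their spread. Control replicate 4 was at 30.3% in B230219D22Rik, against 61.3% to 73.9% in the other control libraries. It was at 51.0% in the unnamed window on chromosome 13 that starts at 94005001, against 78.5% to 82.1%, and at 57.1% in the unnamed window on chromosome 1 that starts at 88606001, against 76.2% to 84.4%. Its total count of 11841657 was also apart, against 7846118 to 9333437. Protein restricted replicate 6 was at 73.9% in the Rims2 window that starts at 39675001, against 92.1% to 98.5%. Control replicate 3 was at 39.9% in the Mid1 window that starts at 169979001, against 54.7% to 60.4%.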

How the results depend on the processing

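The number of variable windows followed the threshold and the way reads are counted: it was 980 with an excess variance over 16, 321 over 36, 210 with at least 5 CpGs per window, 70 with the counts divided by the number of CpGs, and 158 with reads counted once per group of equal coverage. It was 579 with windows shifted by 500 bp, 544 with equal weights for CpGs (534 of them among the 587), 586 without windows over 200 reads per CpG, and 557 to 605 with 1 library left out. For the diets, 0 windows passed the quasi-binomial test with any 1 library left out, and 2 passed, neither of them a member, when the dispersion was not bounded below. At an unadjusted p under 0.05 there were 957 windows. That count was 1491 with the dispersion not bounded, 1459 for limma on logit values, 1366 for limma on percentages, 288 with at least 5 CpGs and 875 to 957 with 1 library left out. For the members it was 7 by limma on logit values, 5 with at least 5 CpGs (where fewer windows are tested) and 8 (without control replicate 4 or 6) to 17 (without control replicate 5) with 1 library left out. No named window passed under any of these. Of 46 named windows, 31 kept the direction of their diet difference with each library left out and 15, none of them with an adjusted p under 0.05, did not. Their differences ranged, in points, from -4.62 to 2.98 for B230219D22Rik, -4.49 to 3.55 for the unnamed window on chromosome 5 and -1.30 to 4.88 for n-R5s28. They ranged from -6.11 to 1.101 for the unnamed window on chromosome 13, -2.81 to 4.66 for Gm4151, -0.43 to 5.21 for Gm33630 and -2.56 to 2.23 for the Camta1 window at 151485001. They ranged from -0.83 to 3.68 for that at 151486001, -0.25 to 3.002 for the Mid1 window at 169983001, -0.64 to 2.098 for Gm5917 and -1.89 to 1.36 for Eif3s6-ps4. They ranged from -1.13 to 2.0996 for Gys2, -5.47 to 0.0093 for the Snrpn window at 60126001, -3.38 to 0.29 for Olfr205 and -1.30 to 4.83 for Ccdc194. The cause of these changes was not tested. With equal weights for CpGs the excess SD of 41 of the 46 windows stayed within 1.5 times and that of 5 did not. That comparison still subtracted the counting variance of the summed counts. No paired analysis was possible because the replicate numbers follow the order of accession and the labels pair no libraries. Depth limits single windows: a coverage of 36.8 reads per CpG, the median of the members, is that of few molecules.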

Other observations

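The only member on the Y chromosome lay outside genes and had a mean of 86.8%, and 1 member lay on an unplaced scaffold, at 58.3%. The scaffold was not compared with genes.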
